A study of Mus musculus with 66 samples.

Results

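Integrins are paired cell-surface receptors, each made of an alpha and a beta subunit, and the 10 subunit genes described here were chosen by name: Itga4, Itgal, Itgam and Itgb2 of leukocytes, the matrix-binding Itga5, Itga6, Itgav and Itgb5, the muscle fibre subunit Itga7, and Itgb1, the beta subunit that many alpha subunits share. They were measured with 18 of the 12488 probe sets on the later of the array versions used, called Av2 in the labels, which covers 8251 genes named by a probe set of their own. Each gene was followed with the probe set annotated to it alone that was brightest by its mean over 54 arrays. All arrays were of mouse gastrocnemius, a calf muscle. Muscles injected with cardiotoxin, a toxin of snake venom that kills the fibres but not the satellite cells that rebuild them, were sampled at 26 times between 12 h and 40 d, and the control muscles were untreated. Each time and the control had 2 Av2 arrays, and an earlier version, called A, held 12 more arrays of the control, 12 h, 1 d, 2 d, 4 d and 10 d. A dose of 100 ul at 10 uM is labelled on the 10 injected arrays of version A and on no Av2 array. The 4 control arrays of both versions carry an age of 8 weeks. The sources used here give no strain, genotype or sex. Whether 2 arrays of the same time stand for different animals is not stated either, and p-values therefore cover the spread among arrays, which may be technical.

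Integrins anchor cells to the matrix and to each other. Itgb2 pairs with Itgal to form LFA-1 and with Itgam to form Mac-1, receptors with which leukocytes hold on to ICAM proteins of the vessel wall and leave the blood. Itgb1 pairs with Itga4 to bind VCAM-1 and fibronectin, with Itga5 to bind fibronectin, and with Itga6 or Itga7 to bind laminin, and the last of these holds the muscle fibre to its basement membrane. Itgav pairs with Itgb1 or Itgb5, binds vitronectin and fibronectin, and can release active TGF-beta from its latent complex. The samples were muscle tissue with all its cells, so fewer cells of a type and less RNA per cell cannot be told apart.

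Values are intensities on a linear scale as deposited, and log2 changes were computed on values raised to a floor of 64.7. The share of probe sets above the floor ran from 76.4% to 83.4% across the Av2 arrays, and the number of arrays limits the precision. The times after injection were joined into 6 windows, and each window was set against the 2 control arrays in a limma fit of all 54 arrays. All 15 markers of mature fibres lay above the floor on every control array, with a summed intensity of 389394 and 469645. On 7 arrays the ratio of the manufacturer's b-actin 3-prime to its 5-prime control probe set lay under 0.1. These were 12 h replicate 2 and both arrays of 1 d, 2 d and 4 d, so 5 of the 6 arrays of the earliest window were among them.

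RefSeq on GRCm38.p6 places Itgal at chr7:127296139-127335137 and Itgam at chr7:128062640-128118491. Itgb2 lies at chr10:77530329-77565708 and Itga7 at chr10:128933421-128958286. Itga6, Itga4 and Itgav share chromosome 2, at chr2:71786886-71858427, chr2:79255426-79333114 and chr2:83722303-83806917. Itga5 lies at chr15:103344286-103366791, Itgb5 at chr16:33829665-33949338 and Itgb1 at chr8:128685654-128733579. Where within each gene the probes lie is not given in the sources used here.

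Promoter sequence is shown for 3 members that differ in how they moved: Itgam, with the largest rise, Itga5, which was highest on the same day, and Itgb1, which changed little. The sequences are the 250 bases before the gene start in RefSeq on GRCm38.p6, at chr7:128062390-128062639 on the plus strand for Itgam, chr15:103366792-103367041 on the minus strand for Itga5 and chr8:128685404-128685653 on the plus strand for Itgb1. Each is written 5′ to 3′ along its gene, and capitals mark GAGGAA on either strand, the core that the myeloid transcription factor PU.1 binds.
Itgam: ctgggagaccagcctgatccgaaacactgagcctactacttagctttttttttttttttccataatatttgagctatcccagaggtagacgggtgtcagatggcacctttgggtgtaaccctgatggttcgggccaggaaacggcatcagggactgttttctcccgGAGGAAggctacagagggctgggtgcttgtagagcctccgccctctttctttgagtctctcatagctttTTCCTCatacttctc
Itga5: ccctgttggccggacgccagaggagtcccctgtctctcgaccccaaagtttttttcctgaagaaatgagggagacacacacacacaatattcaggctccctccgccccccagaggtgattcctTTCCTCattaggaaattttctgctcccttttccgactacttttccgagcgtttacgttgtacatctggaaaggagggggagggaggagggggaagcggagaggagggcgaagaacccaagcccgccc
Itgb1: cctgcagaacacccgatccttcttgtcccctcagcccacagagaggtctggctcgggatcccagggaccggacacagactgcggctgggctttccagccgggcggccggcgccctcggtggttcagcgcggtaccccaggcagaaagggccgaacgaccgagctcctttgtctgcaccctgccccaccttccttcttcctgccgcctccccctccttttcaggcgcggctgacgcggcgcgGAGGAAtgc
The motif stood 84 and 15 bases before the start of Itgam, 127 before that of Itga5 and 9 before that of Itgb1. It was found in 4 of the 6 member promoters in the table, with none in Itga4 or Itgb5 and 2 in Itgav. Of all 32851 promoters of the same length, 23.3% held GAGGAA and 3.54% held it 2 or more times. The Sp1 box GGGCGG was found in 5 of the 6 members against 32.7% of all promoters, and the E-box CANNTG in 4 of the 6 against 66.2%. Both strands were searched, the motifs were counted apart, overlaps between them were not removed, and a match is a description of these letters only.

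All 10 integrin genes, each by its brightest probe set, changed over the time course. Of the 11997 probe sets tested, dim and duplicate ones included, 48.7% did. Dimmer probe sets of Itga4, Itgav, Itga7 and Itgb5 did not pass limma's F test (adjusted p = 0.43, 0.16, 0.76 and 0.41). Further ones of Itga4, Itgav, Itga7 and Itgb1 did. For the brightest probe sets, adjusted p in limma's F test ran from 1.3e-10 for Itgb2 and 7.6e-09 for Itgam to 0.010 for Itgal and 0.021 for Itga6. At 12 h to 2 d, 5 members rose and 1 fell, where 17.7% of all probe sets were higher and 18.5% lower. The members above control were Itgam, Itgb2, Itgal, Itga5 and Itgav, and the member below was Itgb5. At 3 to 4.5 d, 7 members rose and none fell, with backgrounds of 22.2% higher and 18.5% lower; Itga6, Itga7 and Itgb1 now passed, and Itgal did not. At 5 to 7.5 d, 6 rose and none fell, against 19.0% and 16.1% of all probe sets. At 8 to 10 d and again at 11 to 16 d, the same 4 members, Itgam, Itgb2, Itgav and Itgb1, were above control. The backgrounds were 16.9% higher and 13.8% lower at 8 to 10 d, and 13.9% higher and 10.2% lower at 11 to 16 d. At 20 to 40 d none of the 10 passed in either direction, where 5.01% of all probe sets were higher and 2.12% lower. The median log2 change over the 10 members was 0.19, 0.71, 0.63, 0.28, 0.22 and 0.11 in the 6 windows in order, while that over all probe sets tested was at most 0.029. The members, the windows and the gene lists used below were chosen with earlier results of these data known. Counts set against shares of all probe sets are therefore descriptions.

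**Figure D1:**
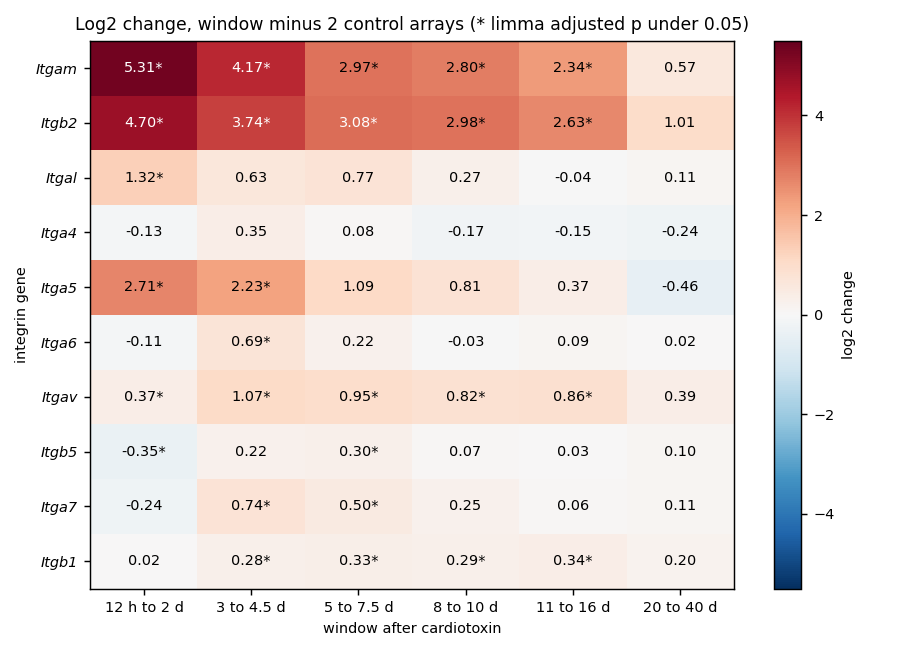
Log2 change of each integrin gene (rows) in each window after cardiotoxin (columns), window minus the 2 control arrays, with colour from blue (lower) to red (higher) and an asterisk where limma's adjusted p is under 0.05. Itgam and Itgb2 pass in 5 windows with log2 changes from 2.34 to 5.31, Itgav and Itgb1 pass in 5 and 4 windows at up to 1.07 and 0.34, and no cell of the last column passes.

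Itgam encodes CD11b, the alpha subunit of Mac-1 on neutrophils and macrophages. Its intensity was 690.3 and 5640.4 at 12 h, 6474 and 2070.1 at 1 d, and 2881 and 1867 at 2 d, against 46.7 and 62.1 in controls. Every array from 12 h to 16 d lay above both control arrays, and both controls lay under the floor, so each fold is a lower bound. At 12 h to 2 d the log2 change was 5.31 ± 0.47 (SE), at least 39.6-fold, with an adjusted p of 1.4e-10. The highest time was 1 d, at 4272 ± 3114 (SD, n = 2), and it became 12 h without the higher 1 d array or without the lower 12 h array. The 2 arrays of 12 h were far apart, as were those of 1 d.

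From 3 d Itgam stepped down. At 3 to 4.5 d it ran from 974.9 to 1384 with a median of 1157 (n = 8, at least 17.9-fold above control), and at 5 to 7.5 d from 315 to 896.3 with a median of 483.2 (n = 12, at least 7.82-fold). The first of these steps, from 12 h to 2 d to 3 to 4.5 d, had a log2 change of -1.14 ± 0.31 (SE) and an adjusted p of 0.0050; without 12 h replicate 2 it was -0.64 with an adjusted p of 0.055. The next step, to 5 to 7.5 d, had a log2 change of -1.20 ± 0.26 (adjusted p = 0.0010), and the windows did not overlap. Itgam then stayed at least 6.97-fold above control at 8 to 10 d and at least 5.05-fold at 11 to 16 d. At 20 to 40 d it was 95.5 ± 50.3 (SD, n = 6), and the log2 change of 0.57 against control did not pass (adjusted p = 0.57). The step into this last window fell by 1.76 on the log2 scale (adjusted p = 4.2e-05), with no overlap between the windows.

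Itgb2 encodes CD18, the beta subunit that Itgam and Itgal share. Its intensity was 916 and 3035 at 12 h, 5079.7 and 3599.7 at 1 d and 5237 and 3405 at 2 d, against 167 and 85.1 in controls. All 52 arrays after injection lay above both controls. The log2 change was 4.70 ± 0.33 (SE), 26.1-fold, at 12 h to 2 d (adjusted p = 1.2e-12), and 13.4-fold at 3 to 4.5 d, 8.46-fold at 5 to 7.5 d, 7.91-fold at 8 to 10 d and 6.17-fold at 11 to 16 d, all past the test. Itgb2 thus passed in the same 5 windows as Itgam. It fell by 0.96 (adjusted p = 8.9e-04) and then 0.66 (adjusted p = 0.0086) on the log2 scale over the first steps. Both arrays of 16 d, at 204.9 and 309.3, lay below every array from 12 h to 14 d. The step from 11 to 16 d to 20 to 40 d was -1.61 ± 0.21 (SE, adjusted p = 8.0e-07). At 20 to 40 d Itgb2 was 242.8 ± 34.4 (SD, n = 6) against 126.2 ± 58.0 (SD, n = 2) in controls. All 6 late arrays lay above both controls, and the log2 change of 1.01 had an adjusted p of 0.057. It passed without control replicate 1 (adjusted p = 0.036), without 40 d replicate 2 (adjusted p = 0.044), without either array of 12 h (adjusted p = 0.017) or 9 d (adjusted p = 0.041), and without the arrays low in the b-actin ratio (adjusted p = 0.013).

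Over the 27 time groups the log2 group means of Itgam and Itgb2 had a Pearson correlation of 0.94, given as a description of points that share arrays and scaling. Markers of leukocytes moved with both genes. The 15 macrophage markers all rose at 12 h to 2 d, with a summed intensity between 42067 and 125098, against 5509 and 8423 in controls, where Fcer1g alone was at the floor on both arrays. Of 13 neutrophil markers measured, 8 rose, and their sum lay between 32624 and 120135, against 3742 and 3992 in controls, where S100a9 and Mmp8 were at the floor. Over all probe sets 17.7% were higher in that window. Within 12 h, replicate 2 exceeded replicate 1 in Itgam and Itgb2, and also in the neutrophil sum (95506 and 59734) and the macrophage sum (93036 and 42067). At 3 to 4.5 d the neutrophil sum was 5521 to 11105 and the macrophage sum 55283 to 92722, and at 20 to 40 d the macrophage sum was 9863 to 15045. The part of these cells in the integrin levels was not tested. Without the 7 arrays low in the b-actin ratio the earliest window keeps 12 h replicate 1 alone, and the first step of Itgam and of Itgb2 then turns to 0.78 (adjusted p = 0.15) and 0.85 (adjusted p = 0.071).

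**Figure D2:**
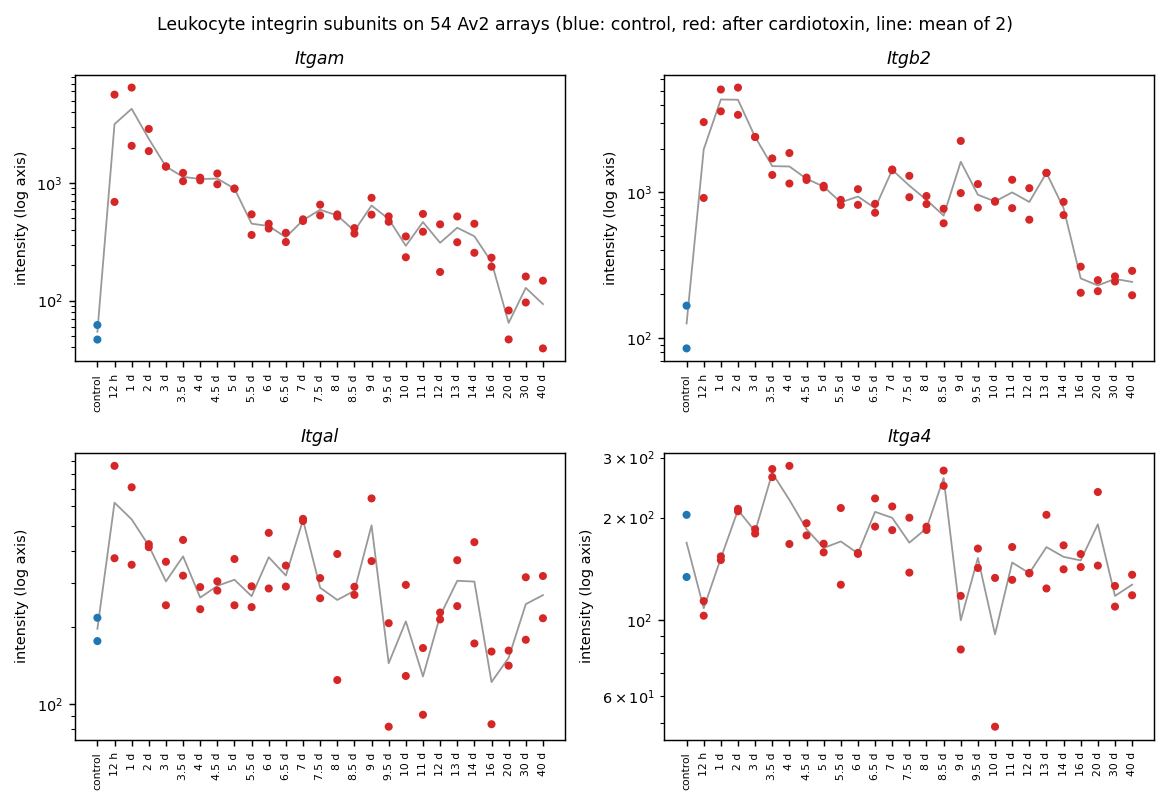
Intensity (log axis) of the leukocyte integrin genes on each of the 54 Av2 arrays, with control at the left and times after cardiotoxin in order; each point is an array and the line joins the means of 2 arrays. Itgam and Itgb2 are highest at 12 h to 2 d and above both controls on every array to 16 d, while Itgal and Itga4 overlap the controls at many times.

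Itgal encodes CD11a, the alpha subunit of LFA-1, found on most leukocytes. At 12 h to 2 d it ran from 352.5 to 861.5 with a median of 418.9 (n = 6), against 218.3 and 176.8 in controls, and the groups did not overlap. It rose 2.50-fold (log2 1.32 ± 0.42 SE, adjusted p = 0.014), and the call was lost without control replicate 1 (adjusted p = 0.052) or control replicate 2 (adjusted p = 0.14), and without the 7 arrays low in the b-actin ratio (0.93, adjusted p = 0.44). No later window passed. The highest Itgal values were 861.5 on 12 h replicate 2, 710 on 1 d replicate 1 and 642.1 on 9 d replicate 1. On each of these arrays the neutrophil sum was the higher of the 2 at its time, at 95506, 120135 and 52075. The macrophage sum was also the higher on the 12 h and 9 d arrays. Both 7 d arrays came next for Itgal, at 533.6 and 523.6, while neutrophil sums at 5 to 7.5 d were at most 12762.5. The part of neutrophils in the Itgal level was not tested. Of 16 T cell and natural killer cell markers, 1 was higher and 1 lower at 12 h to 2 d, both past the test, with a sum of 2002 to 4391, against 1940 and 2188 in controls. This sum was higher later, at 4767 to 6498 at 5 to 7.5 d, the window that holds 7 d, and 4311 to 6359 at 8 to 10 d. Cd3e, Cd3g, Cd2, Cd5, Cd8a, Cd8b1 and Klrk1 were at the floor on both controls, and the part of these cells was not tested. None of 7 B cell markers passed at 12 h to 2 d. Their sum was 1558 and 10621 on the 2 arrays of 12 h, against 1431 and 1879 in controls. Over all probe sets 17.7% were higher and 18.5% lower at 12 h to 2 d.

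Itga4, the alpha subunit of VLA-4, passed in none of the 6 windows, with log2 changes between -0.24 and 0.35. Its intensity was 103.1 and 113.8 at 12 h and 263 and 277.8 at 3.5 d, its highest time, against 133.9 and 203.8 in controls. With the 30 d and 40 d arrays in place of the controls it passed at 3 to 4.5 d (0.79, adjusted p = 4.9e-04) and 5 to 7.5 d (0.52, adjusted p = 0.015). It rose by 0.48 ± 0.16 (SE) on the log2 scale from 12 h to 2 d to 3 to 4.5 d (adjusted p = 0.021). That call was lost without 12 h (0.24, adjusted p = 0.42), without 4 d replicate 1 (adjusted p = 0.074) and after median scaling (0.37, adjusted p = 0.064). A dimmer probe set of the gene, above the floor on 38 of 54 arrays, gave -0.20 for the step, so the direction of Itga4 rests on the probe set. Another, above the floor on 29 arrays, rose by 0.82 at 3 to 4.5 d (adjusted p = 0.013).

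**Figure D3:**
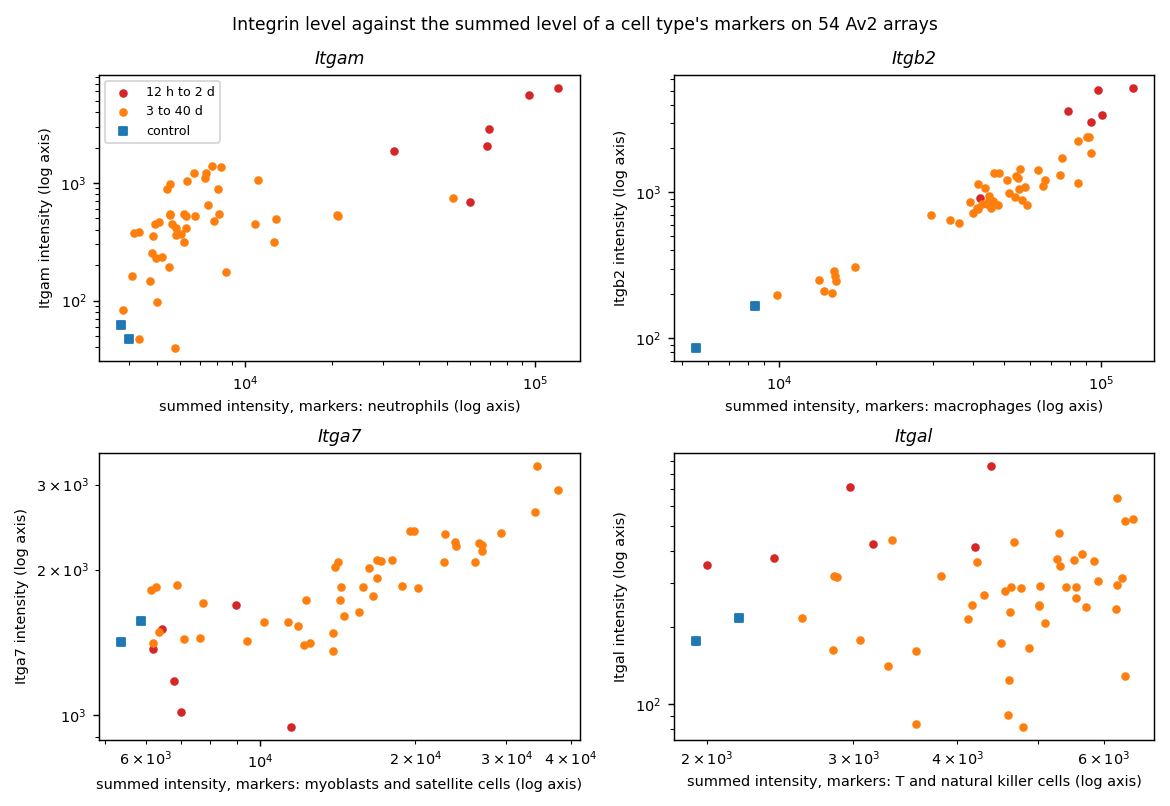
Intensity of Itgam, Itgb2, Itga7 and Itgal on each of the 54 Av2 arrays (vertical, log axis) against the summed intensity of the markers of a cell type on the same array (horizontal, log axis), with 12 h to 2 d in red, 3 to 40 d in orange and control as blue squares. The controls lie at the low end of the neutrophil and macrophage sums with the lowest Itgb2, and the Itgal values spread widely at any T and natural killer cell sum.

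Among the matrix-binding subunits the early changes were unlike one another, with Itga5 and Itgav up and Itgb5 down. Itga5, the fibronectin receptor subunit, was 146.7 and 827.6 at 12 h, 1522 and 695.6 at 1 d and 1185 and 860.9 at 2 d, against 184.6 and 32.9 in controls. The log2 change was 2.71 ± 0.72 (SE), 6.52-fold, at 12 h to 2 d (adjusted p = 0.0030) and 2.23 ± 0.69, 4.69-fold, at 3 to 4.5 d (adjusted p = 0.0097). Control replicate 2 was under the floor and entered these folds at the floor's value. Both calls were lost without it, at 1.95 (adjusted p = 0.13) and 1.47 (adjusted p = 0.26), and the first also without the 7 arrays low in the b-actin ratio (0.43, adjusted p = 0.93). Itga5 was uneven after 4.5 d. All 4 arrays of 5 d and 6 d lay under the floor, at 26.3 to 54.9, while the 5.5 d arrays between them were at 644.2 and 591.1. The step from 3 to 4.5 d to 5 to 7.5 d fell by 1.14 on the log2 scale (adjusted p = 0.040), a call lost without 4 d replicate 2 (-0.93, adjusted p = 0.13) and without most other single arrays of these windows. Its log2 group means correlated at 0.72 with those of Itgam over the 27 time groups, as a description.

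Itga6, a laminin receptor subunit of myoblasts, endothelium and other cells, had its highest time at 3 d, with 757.8 and 790, against 424.7 and 263.4 in controls. At 3 to 4.5 d it ran from 415.3 to 790 with a median of 491.6 (n = 8) and rose 1.62-fold (log2 0.69 ± 0.25 SE, adjusted p = 0.028). Of the 8 arrays, 1 lay below the higher control. The call was lost without control replicate 2 (0.35, adjusted p = 0.50), without 3.5 d replicate 1 (0.63, adjusted p = 0.052), after quantile normalization (0.52, adjusted p = 0.13) and after median scaling (0.52, adjusted p = 0.12). The steps on either side did not use the controls. Itga6 rose by 0.80 ± 0.17 (SE) on the log2 scale into 3 to 4.5 d (adjusted p = 5.5e-04) and fell by 0.48 ± 0.15 out of it (adjusted p = 0.018). Without 12 h the rise was 0.53 with an adjusted p of 0.052, and without 3.5 d replicate 1 the fall was -0.42 with an adjusted p of 0.064.

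Itgav, the alpha v subunit, rose in 5 windows, more than any other matrix-binding subunit described here. All 52 arrays after injection lay above both controls, which were at 3192 and 3395. At 12 h to 2 d it ran from 3405 to 5011 with a median of 4460.0 (n = 6), and rose 1.29-fold (log2 0.37 ± 0.13 SE, adjusted p = 0.027). That early call was lost without either control (0.32 and 0.41, adjusted p = 0.19 and 0.083), without 12 h replicate 2 or 1 d replicate 1 (adjusted p = 0.071 for each), after median scaling (0.30, adjusted p = 0.059) and without the 7 arrays low in the b-actin ratio (0.05). The level was highest at 3.5 d, with 8432 and 7954. The log2 changes were then 1.07 ± 0.13 at 3 to 4.5 d (2.10-fold, adjusted p = 3.1e-08), 0.95 ± 0.12 at 5 to 7.5 d (1.94-fold), 0.82 ± 0.12 at 8 to 10 d (1.77-fold) and 0.86 ± 0.12 at 11 to 16 d (1.82-fold). It fell by 0.48 ± 0.08 (SE) on the log2 scale into 20 to 40 d (adjusted p = 6.9e-05), where 0.39 against control did not pass (adjusted p = 0.070); it passed without 20 d replicate 1 (0.45, adjusted p = 0.039), without either 12 h array (adjusted p = 0.047) and without the arrays low in the b-actin ratio (adjusted p = 0.040). The other probe sets of Itgav passed in no window. The one with a mean intensity of 256.6 was above control in all 6, by 0.01 to 0.79 on the log2 scale, and the one with a mean of 493.3 was below control by 0.48, 0.02 and 0.09 at 5 to 7.5 d, 8 to 10 d and 11 to 16 d (log2 changes of -0.48, -0.02 and -0.09).

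Itgb5, the partner of Itgav in the vitronectin receptor, was lowest at 12 h, with 1260 and 1450, against 2336 and 2606 in controls. Over 12 h to 2 d the log2 change was -0.35 ± 0.10 (SE), 1.27-fold lower (adjusted p = 0.0086), and without 12 h it was -0.08 (adjusted p = 0.63); without control replicate 2 it was -0.27 (adjusted p = 0.17). Both 12 h arrays lay below every other array of the course. It rose by 0.57 ± 0.07 (SE) on the log2 scale into 3 to 4.5 d (adjusted p = 8.6e-08), and was 1.23-fold above control at 5 to 7.5 d (log2 0.30 ± 0.10, adjusted p = 0.015). That call was lost after median scaling (0.15, adjusted p = 0.30) and without control replicate 1 (0.22, adjusted p = 0.26). Itgb5 then fell by 0.23 ± 0.05 on the log2 scale into 8 to 10 d (adjusted p = 0.019), a call lost without 8 d replicate 1 (adjusted p = 0.059) or 10 d replicate 1 (adjusted p = 0.062). Its dimmer probe set passed in no window, and gave 0.04 at 12 h to 2 d.

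**Figure D4:**
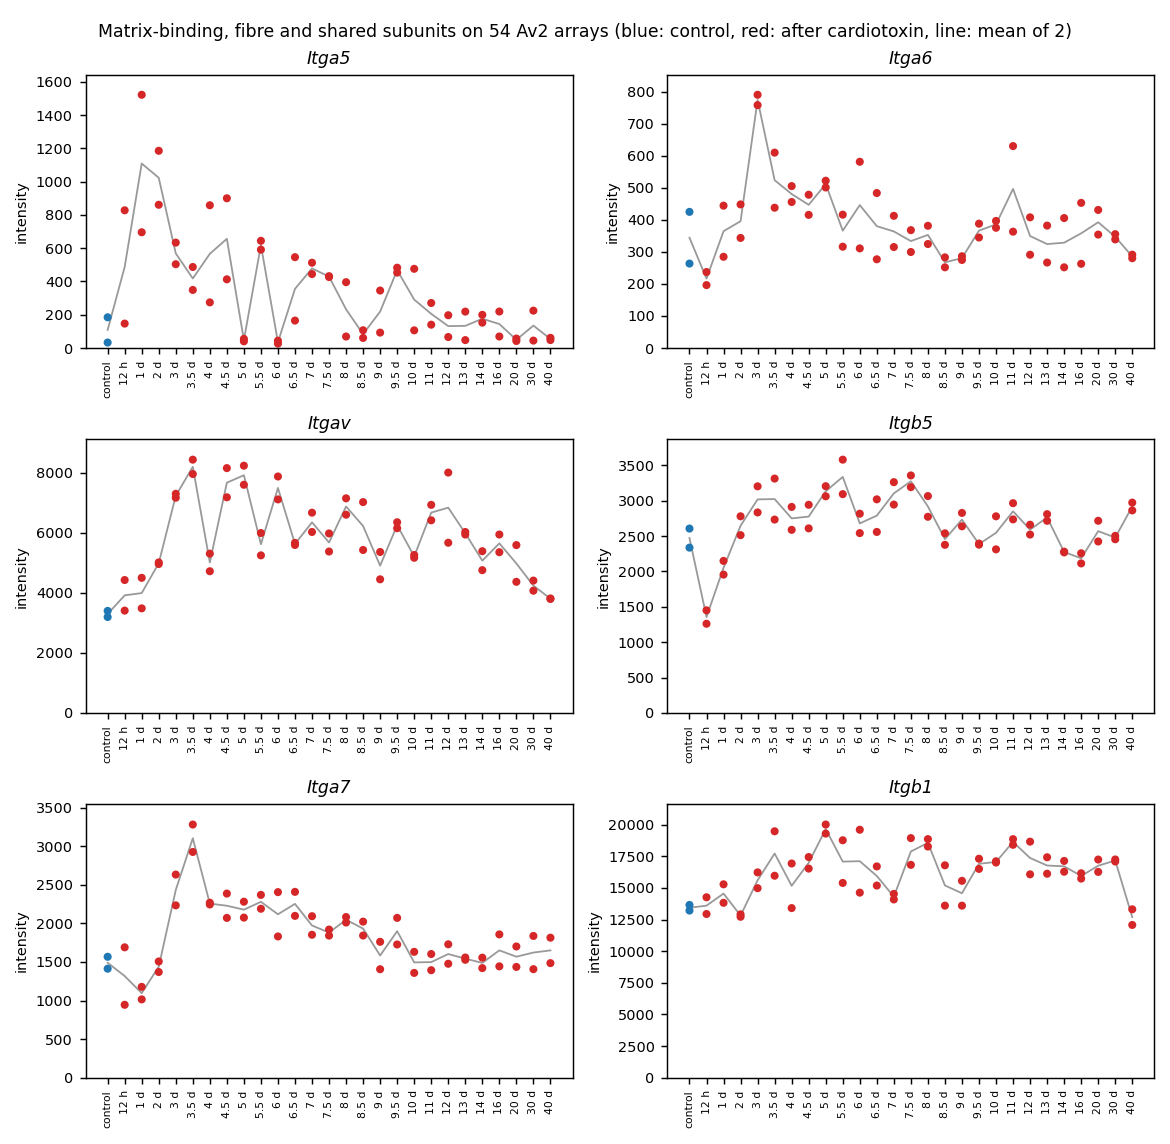
Intensity (linear axis from 0) of the matrix-binding subunits Itga5, Itga6, Itgav and Itgb5, the fibre subunit Itga7 and the shared subunit Itgb1 on each Av2 array, with control at the left and times after cardiotoxin in order; points are arrays and the line joins the means of 2. Itga7 and Itgav are highest at 3.5 d, Itga6 at 3 d, and Itgb5 is lowest at 12 h.

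Itga7, the laminin receptor subunit of muscle fibres and myoblasts, was highest at 3.5 d. It was 1690 and 945.1 at 12 h, 1177 and 1015 at 1 d and 1507 and 1369.8 at 2 d, against 1413 and 1567 in controls, and the change of -0.24 ± 0.16 (SE, log2) did not pass (adjusted p = 0.27). Without 12 h replicate 1 it was -0.38 and passed (adjusted p = 0.031). At 3.5 d it stood at 2926 and 3281. From 12 h to 2 d to 3 to 4.5 d it rose by 0.98 ± 0.11 (SE) on the log2 scale, 1.97-fold (adjusted p = 1.4e-08), and the windows did not overlap.

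Against controls Itga7 rose 1.67-fold at 3 to 4.5 d (log2 0.74 ± 0.16 SE, adjusted p = 2.7e-04) and 1.41-fold at 5 to 7.5 d (log2 0.50 ± 0.15, adjusted p = 0.0095). The second of these was lost without control replicate 1 (0.42, adjusted p = 0.15) and after median scaling (0.35, adjusted p = 0.088). From 8 to 10 d its windows overlapped the controls and did not pass, with log2 changes of 0.25, 0.06 and 0.11. A further probe set, with a mean intensity of 1686, rose in the same windows, by 0.78 and 0.62 on the log2 scale, and also at 8 to 10 d (0.49, adjusted p = 0.0038). The remaining one, with a mean of 50.1, lay above the floor on 10 of 54 arrays and went the other way, from -0.56 to -0.69 in the first 5 windows, all past the test. Its controls were 168.9 and 57.1, the second raised to the floor, so these falls rest on control replicate 1.

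Markers of myoblasts and satellite cells moved with Itga7. Of 10 measured, 8 rose and none fell at 3 to 4.5 d, with a summed intensity of 23947 to 37804, against 5365 and 5865 in controls; Met was at the floor on both controls, and Pax7 had no probe set of its own. Of 15 markers of mature fibres, 11 fell at 3 to 4.5 d, with a sum of 97153 to 227892. Among 11 fibroblast and matrix markers, 8 rose and 1 fell in that window, and of 11 endothelial markers 2 rose and 2 fell. Over all probe sets 22.2% were higher and 18.5% lower at 3 to 4.5 d. The part of these cell types in the levels of Itga7, Itga6 and Itgav was not tested.

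Itgb1, the beta subunit shared by Itga4, Itga5, Itga6, Itga7 and Itgav, moved by small amounts. Its probe set carries the manufacturer's suffix for probes that can match a family of sequences, as does that of Itgav, so a related transcript may add to either. At 12 h to 2 d it was 13653 ± 999 (SD, n = 6), against 13430 ± 313 (SD, n = 2) in controls, with a log2 change of 0.02 ± 0.11 (adjusted p = 0.95). The rises were 1.21-fold at 3 to 4.5 d (log2 0.28, adjusted p = 0.045), 1.26-fold at 5 to 7.5 d (0.33, adjusted p = 0.016), 1.22-fold at 8 to 10 d (0.29, adjusted p = 0.045) and 1.27-fold at 11 to 16 d (0.34, adjusted p = 0.019). Each was lost after median scaling, at 0.10, 0.18, 0.13 and 0.23, and without either control array. The step into 3 to 4.5 d, which uses no control, was 0.26 ± 0.08 (SE, log2, adjusted p = 0.0098) and was lost after median scaling (0.15, adjusted p = 0.24) and without the 7 arrays low in the b-actin ratio (0.37, adjusted p = 0.056). The other probe set of the gene, with a mean intensity of 3248, rose in the same 4 windows, by 0.61, 0.56, 0.45 and 0.42 on the log2 scale. The highest time was 5 d, at 19288 and 20005, and 40 d was the lowest, at 13307 and 12071.

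Changes between neighbouring windows use no control array. From 12 h to 2 d to 3 to 4.5 d, 6 members rose, all but Itga4 outside the leukocyte group, and 2 fell, Itgam and Itgb2, with backgrounds of 16.9% higher and 10.7% lower. The members that rose were Itga4, Itga6, Itgav, Itgb5, Itga7 and Itgb1. From 3 to 4.5 d to 5 to 7.5 d, 4 fell, Itgam, Itgb2, Itga5 and Itga6, and none rose, with 9.16% of all probe sets higher and 12.0% lower. From 5 to 7.5 d to 8 to 10 d 1 fell, Itgb5, with 1.03% higher and 1.42% lower. None passed from 8 to 10 d to 11 to 16 d, with 3.17% higher and 3.36% lower. From 11 to 16 d to 20 to 40 d Itgam, Itgb2 and Itgav fell and none rose, against 8.19% higher and 11.3% lower. The median log2 change of the 4 leukocyte members over the first step was -0.83 and that of the 4 matrix-binding members 0.63, against 0.98 for Itga7 and 0.0059 over all probe sets tested. No test compared these groups of members. Itgal, at -0.70 (adjusted p = 0.065), and Itga5, at -0.48, did not pass over that step, and Itgal did after median scaling (-0.80, adjusted p = 0.027). Without the 7 arrays low in the b-actin ratio the values of Itgam and Itgb2 were 0.78 and 0.85, which did not pass.

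The pairing of subunits gives a direct comparison, since an alpha subunit reaches the surface only with a beta partner. For 8 known pairs the log2 difference between alpha and beta was formed on each array. Its change over each of the 5 steps was tested with a two-sided permutation test over arrays, with Benjamini-Hochberg adjustment over all 40 tests. The test regrouped single arrays freely, although they come 2 to a time and may not be independent. Its p-values can therefore be too small, and they describe arrays, not animals. The level of such a difference compares different probe sets and was not read; only its change was. The difference changed in 6 of the 40. Itgal and Itgb2 parted most: their difference changed by 0.80 from 3 to 4.5 d to 5 to 7.5 d (exact permutation, adjusted p = 0.022) and by 1.76 from 11 to 16 d to 20 to 40 d (exact permutation, adjusted p = 0.020). Over these steps Itgb2 itself changed by -0.66 and -1.61, both past limma's test, and Itgal by 0.14 at each, which did not pass. Itgam and Itgb2 passed at none of the 5 steps, with the nearest at -0.54 from 3 to 4.5 d to 5 to 7.5 d (exact permutation, adjusted p = 0.067).

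Itga7 rose beyond Itgb1 by 0.72 over the first step (exact permutation, adjusted p = 0.020; after quantile normalization 0.66, adjusted p = 0.079), with a mean log2 difference of -2.72 ± 0.25 (SD, n = 8) at 3 to 4.5 d and -3.44 ± 0.42 (SD, n = 6) at 12 h to 2 d. Itga6 fell relative to Itgb1 by 0.53 over the second step (exact permutation, adjusted p = 0.022). Into 20 to 40 d, Itgav fell by 0.33 relative to Itgb1 (exact permutation, adjusted p = 0.037; after quantile normalization -0.27, adjusted p = 0.17) and by 0.55 relative to Itgb5 (exact permutation, adjusted p = 0.010). Neither Itga4 nor Itga5 parted from Itgb1 at any step, with lowest adjusted p of 0.24 and 0.16. Without 12 h, however, Itga5 fell relative to Itgb1 over the first step (-1.25, exact permutation, adjusted p = 0.048). The arrays of a window belong to different times, so this spread includes change within the window.

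**Figure D5:**
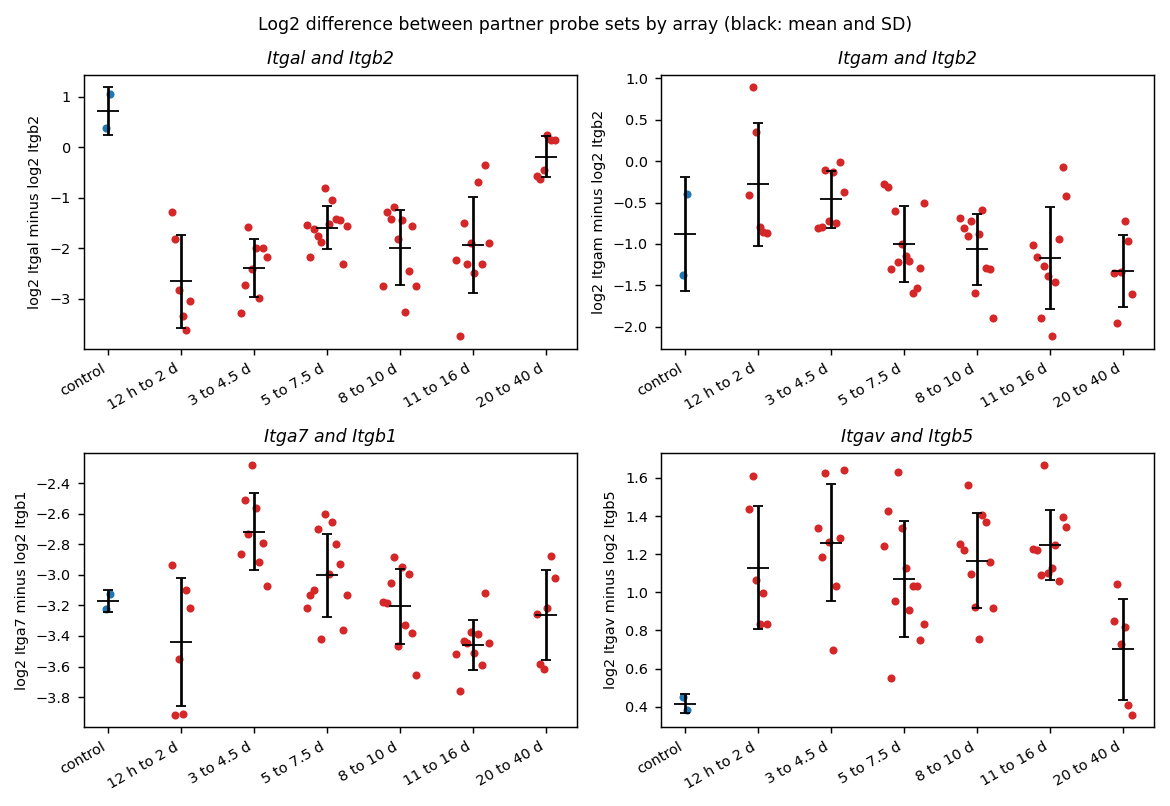
Log2 difference between an alpha subunit and its beta partner on each Av2 array (points) by window, with control at the left; black marks are the mean and bars the SD over the arrays of a window. Itgal minus Itgb2 is -0.19 at 20 to 40 d against -1.94 at 11 to 16 d, while Itgam minus Itgb2 shows no step that passed.

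The genes whose log2 group means were most like those of a member over the 27 time groups were named by the 3 highest Pearson correlations, as a description of points that share arrays and scaling. For Itgam these were Tgif1 (0.97), the chemokine Ccl9 (0.96) and Snx10 (0.96). For Itgb2 they were Cd52, a leukocyte surface antigen (0.99), the phosphatase Ptpn6 (0.98) and Csf2ra, a subunit of the GM-CSF receptor (0.97). For Itga7 they were Cdh15, the cadherin of muscle cells (0.92), Myog, the myogenic regulator (0.90), and Erbb3 (0.88). Itga6 was closest to Prmt1 (0.89), Sarnp (0.88) and Ncoa4 (0.87), and Itgav to Macf1 (0.86), Gga2 (0.86) and Armcx2 (0.85). Itgb5 was closest to Cdk5 (0.85), Itga5 to Fmnl1 (0.82), Itgb1 to Gng11 (0.80) and Itgal to Slc27a4 (0.79). The best match of Itga4, Erlin1, reached 0.71.

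Of 16 other integrin subunits listed, 8 had a probe set of their own, and 2 leukocyte subunits were above control among them. Itgax, which encodes CD11c of macrophages and dendritic cells, was 1486 ± 407 (SD, n = 12) at 5 to 7.5 d, against 459.3 ± 7.4 (SD, n = 2) in controls, 3.13-fold higher (adjusted p = 8.5e-08). It passed from 12 h to 2 d through 11 to 16 d, with 1.74 on the log2 scale at 8 to 10 d. Itgb7, a partner of Itga4 on lymphocytes, rose in the same 5 windows and was 2.97-fold above control at 12 h to 2 d (log2 1.57, adjusted p = 2.2e-06). Over all probe sets 13.9% to 22.2% were higher in these 5 windows. Itgb4, the laminin receptor subunit of epithelia, fell at 5 to 7.5 d (log2 -1.62 ± 0.50 SE, adjusted p = 0.011). Itga2, Itga3, Itga8, Itgae and Itgb3 passed in no window.

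Of 24 ligands tested, 9 rose and 5 fell at 12 h to 2 d, 12 rose and 3 fell at 3 to 4.5 d, and 15, 15, 13 and 9 rose with none falling in the later windows. Over all probe sets 17.7%, 22.2%, 19.0%, 16.9%, 13.9% and 5.01% were higher in the 6 windows in order. Those lower made up 18.5%, 18.5%, 16.1%, 13.8%, 10.2% and 2.12%. Icam1, which LFA-1 and Mac-1 bind, rose at least 7.40-fold at 12 h to 2 d, to 492.7 ± 138.4 (SD, n = 6), against 51.1 ± 13.97 (SD, n = 2) in controls, both under the floor. Lama2, the laminin chain that Itga7 binds, was 376.8 ± 165.0 (SD, n = 6), against 1458 ± 14.4 (SD, n = 2) in controls, a log2 change of -2.05 ± 0.23 (adjusted p = 1.7e-08). Vtn, vitronectin, fell by 2.19 on the log2 scale (adjusted p = 0.0074), a size set in part by the floor, above which 3 of the 6 arrays lay. Postn, periostin, which Itgav receptors bind, reached 26202 ± 5632 (SD, n = 12) at 5 to 7.5 d, against 1106 ± 775 (SD, n = 2) in controls, 26.8-fold. Tnc rose 18.2-fold in that window. Tgfb1, whose latent form Itgav receptors bind, rose 39.3-fold at 3 to 4.5 d, with 1 of the 2 controls raised to the floor. At 20 to 40 d Vcam1, the ligand of Itga4, was 337.4 ± 71.7 (SD, n = 6), against 116.2 ± 108.3 (SD, n = 2) in controls, 2.96-fold with 1 of the 2 controls raised to the floor (adjusted p = 0.0095).

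Of 27 tested proteins that act on integrins inside the cell or beside them, 14 rose and 3 fell at 12 h to 2 d, 15 and 2 at 3 to 4.5 d, 14 and 2 at 5 to 7.5 d and at 8 to 10 d, 12 and 2 at 11 to 16 d, and 3 and 1 at 20 to 40 d. The shares of all probe sets higher and lower in each window are those given with the ligands. Leukocyte genes led the early window: Cytip, a cytohesin partner that acts on Itgb2, rose 14.6-fold, Vav1 at least 11.9-fold and Rac2 8.64-fold. At 3 to 4.5 d Skap2 rose 6.31-fold and Actn1, alpha-actinin, 5.33-fold. Fermt2, the kindlin of muscle and matrix cells that activates Itgb1, fell in the first 5 windows and was 1013 ± 237 (SD, n = 8) at 3 to 4.5 d, against 2533 ± 149 (SD, n = 2) in controls. Flna, filamin A, fell in all 6 windows, to 25.1 ± 7.1 (SD, n = 6) at 20 to 40 d, against 106.4 ± 29.2 (SD, n = 2) in controls, so most arrays after injection were under the floor.

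The A arrays were scaled apart and were tested only among themselves, with a floor of 646.8 that left 4742 probe sets, 8 members among them; Itga4 and Itga5 were not tested. The controls and 12 h carry the same codes on both versions, so A may hold the same muscles again. At 12 h to 2 d 1 member passed, Itgb2, with a log2 change of 2.13 ± 0.48 (SE), at least 4.38-fold (adjusted p = 0.0078), where 21.3% of all probe sets were higher and 26.3% lower. Itgam on A was 156.8 and 2983 at 12 h, 4595 and 1146 at 1 d and 1916 and 1045 at 2 d, against -141.9 and -83.1 in controls. Replicate 2 was the higher at 12 h, as on the Av2 arrays of the same codes. The 1 d arrays carry other codes on A than on Av2, so replicate numbers cannot be matched there. The change of Itgam on A at 12 h to 2 d did not pass limma's test (adjusted p = 0.12). Its A arrays of 4 d and 10 d all lay under the floor. Itgb2 did not pass limma's test on A at 4 d (at least 1.13 on the log2 scale, adjusted p = 0.16) or 10 d (at least 0.56, adjusted p = 0.58). Itgal, which rose on Av2 at 12 h to 2 d, did not pass on A, with log2 changes of 0.02 at 12 h to 2 d, -0.23 at 4 d and -0.29 at 10 d.

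At 4 d Itga7 and Itgb1 rose, with 22.9% higher and 23.0% lower over all probe sets. Itga7 was 1860 and 1766 at 4 d and 1087 and 1117 at 10 d, against 344.1 and 428.9 in controls, at least 2.80-fold at 4 d (adjusted p = 3.1e-04) and at least 1.70-fold at 10 d (adjusted p = 0.010). At 10 d 4 members rose, Itga7, Itgb1 (log2 0.42), Itgav (0.64) and Itgb5 (at least 0.88, with both controls under the floor), against 13.3% higher and 13.2% lower. Leaving out either A control took the count from 1 to 0 at 12 h to 2 d, from 2 to 1 at 4 d, and from 4 to 1 or 0 at 10 d. Each member called on A also had a positive log2 change in the Av2 window that holds the same time. At 10 d itself, however, Itga7 and Itgb5 on Av2 were near control. Itga7 had a mean of 1495 against 1490 in controls, and Itgb5 2545 against 2471. Itgav, at 5211 against 3293, and Itgb1, at 17051 against 13430, were higher there. The difference between the versions was not tested.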

How the data were processed

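The values used were the intensities of probe sets that the authors deposited, 1 table per array version. The sources used here name no unit, software or background correction for them; their range is that of linear intensity. The 2% trimmed mean lay between 800.4 and 800.5 on Av2 and between 598.2 and 601.1 on A, so each version was taken as already scaled by the authors and used as deposited, without further scaling. Values below 0 made up 16.0% of A and none of Av2. No dye, slide or scan batch is given in the labels.

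Intensities were raised to a floor, 64.7 on Av2 (the 20th percentile, median over arrays) and 646.8 on A, and put on the log2 scale. Probe sets with at least 2 arrays above the floor were tested, 11997 on Av2 and 4742 on A, after 66 control probe sets were left out. Symbols came from the platform's annotation, in which 10833 Av2 probe sets have 1 symbol, 396 several and 1193 none. limma 3.58.1 in R 4.3.3 was fitted with 1 mean per time group on all arrays of a version, with Benjamini-Hochberg adjustment over all probe sets tested and 0.05 as the threshold. Window changes are equally weighted means of time groups minus the control mean. Partner pairs were tested by permutation in SciPy 1.17.1, with 100000 resamples where regroupings passed 200000. Members, lists and windows were chosen with earlier results of these data known. The text names all members, from the lists of other subunits, ligands and adhesion partners some of the 3 largest passed rises and falls per window, beyond that rule each other subunit measured, and the 3 genes most alike each member, or the first of these. Icam1, Vtn, Vcam1 and Lama2 fall within that rule. On simulated data at 12 h to 2 d, the fit was tested on known changes; the outcome is not given here and supports no result above. Alternatives covered scaling, floors, filters, other probe sets, left-out arrays and times, and a block.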

Additional observations from a re-analysis of the deposited data

How the results depend on the processing

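Over windows and steps, 7288 member changes were recomputed under the alternatives, of which 6989 kept direction and side of the threshold, 99 that passed in neither setting changed sign, 141 fell short of it, 46 newly passed and 13 that passed in either setting changed sign. The block held a term for code number 2 and a term for letters beginning with RL, each shared by all times. It left 10 members called over the course and 6, 7, 6, 4 and 4 in the first 5 windows. The block did not pair same-numbered arrays within a time. It therefore cannot show whether such arrays belong together, which the labels do not say. When changes were tested against 2-fold in place of no change (limma's treat), the members called against controls numbered 2 at 12 h to 2 d, 2 at 3 to 4.5 d, 2 at 5 to 7.5 d, 2 at 8 to 10 d and 1 at 11 to 16 d, and 0 over each of the 5 steps between neighbouring windows, steps of Itgam, Itgb2 and Itga5 with a fitted change over 2-fold included. Median scaling left 3 at 5 to 7.5 d. Without the 7 arrays low in the b-actin ratio, 3 were called at 12 h to 2 d, 2 at 20 to 40 d, 5 over the step from 12 h to 2 d to 3 to 4.5 d and 2 over that from 5 to 7.5 d to 8 to 10 d; fewer arrays remain there, and the cause was not tested. At 20 to 40 d, 1 member passed with 2 times the floor, with no filter, and with a variance trend. Leaving out single arrays gave 2 to 7 members at 12 h to 2 d, 4 to 7 at 3 to 4.5 d, 3 to 6 at 5 to 7.5 d, 0 to 2 at 20 to 40 d, 2 to 5 over the step into 5 to 7.5 d and 0 to 2 over the step into 8 to 10 d. On A, 2 were called at 12 h to 2 d with 0.5 times the floor, with 2 times the floor and after quantile normalization, with 0 to 3 over left-out arrays; at 4 d 4 with 0.5 times the floor and 1 to 4 over left-out arrays; at 10 d 2 with 2 times the floor and 0 to 4 over left-out arrays. Over the step into 3 to 4.5 d, 0 partner pairs passed after quantile normalization and 2 without 12 h.

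With dimmer probe sets, called changes of sign were those of Itga4 over the step into 3 to 4.5 d (-0.20) and Itgb5 at 12 h to 2 d (0.038). Itgav changed sign at 5 to 7.5 d (-0.48), 8 to 10 d (-0.019), 11 to 16 d (-0.088) and the step into 20 to 40 d (0.67). Itga7 did so at 3 to 4.5 d (-0.69), 5 to 7.5 d (-0.67) and the step into 3 to 4.5 d (-0.13). It also did at 8 to 10 d (-0.57) and 11 to 16 d (-0.63), where the dimmer probe set passed and the brightest did not. Without the arrays low in the b-actin ratio, the step into 3 to 4.5 d turned to 0.78 for Itgam and 0.85 for Itgb2. The causes were not tested. Signal near the floor limits Itga4 and Itga5, and each window rests on 2 control arrays.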

Other observations

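At 9 d, replicate 1 stood above replicate 2 in each of the leukocyte subunits Itgam (748.5 and 538), Itgb2 (2255 and 989.6) and Itgal (642.1 and 364.4), with neutrophil marker sums of 52075 and 20724 and macrophage marker sums of 84736 and 51859 on the same arrays; Itga4 was 82 and 117.9. No reason for the difference was tested.

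Itga4 at 8.5 d, at 248 and 274.9, was close to its level at 3.5 d, and its lowest time group was 10 d, at 90.9 ± 59.7 (SD, n = 2).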
